A study of Rattus norvegicus with 12 samples.

Results

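The microRNA (miRNA) content of the mammary gland was compared between daughters of male Sprague Dawley rats that had eaten a high-fat diet made with corn oil and daughters of males fed a lard-based high-fat diet. Corn oil is rich in n-6 polyunsaturated fat and lard in saturated fat. Among the diets, only that of the fathers differed, since dams and daughters ate commercial chow. The 6 samples are those of lard daughters 25.5, 29.1 and 31.2 and of corn oil daughters 41.6, 49.2 and 60.5, out of 12 samples in the series, whose other samples are sperm. All daughters were killed at 50 days of age. Lard daughters are labelled as the control, and daughters of males on an ordinary diet were not analysed here. Each label describes a single animal while the series text mentions pooling of RNA, so the unit of replication is not settled, and p-values measure only the spread between these samples. Litter of origin is not spelled out in the labels.

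Quantitative PCR was run for each sample over a pair of cards with 384 wells each. Readings are threshold cycles (Ct), the point of the PCR where the fluorescent signal first passes a threshold, and a well that never crossed is listed at 40, so that a lower Ct stands for more template. On each card 1 control assay fills 4 wells and 2 others fill a single well each, and after removing these 12 control wells, 378 wells remained on each card. A well was kept as a member if its Ct was under 35 in all 6 daughters, which held for 289 of 756 wells, 197 on card 1 and 92 on card 2. The diet contrast was not used to choose them. The highest Ct of a kept well was 34.98, and 10 kept wells reached 34 or later in at least 1 daughter. Of the wells left out, 24 had their highest Ct between 35 and 36.

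miRNAs are short RNAs that guide Argonaute proteins to matching sites in messenger RNAs, most often through the seed near their 5′ end, and lower the stability or translation of those messages. In the mammary gland they take part in duct growth, in the balance of luminal and basal epithelial cells and in lactation. Around this age the rat gland still carries terminal end buds, the growing duct tips that are known as targets of chemical carcinogens. The samples were whole abdominal glands, which mix epithelium, fat, connective tissue, vessels and immune cells, so that fewer cells of a type and less RNA per cell cannot be told apart. Wells carry numbers only, with no miRNA names beside them in the files. For that reason no miRNA is named, no sequence is shown, and the labelled tissue could not be checked against miRNAs typical of epithelium, muscle or blood.

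Within a daughter the kept wells spanned a wide range of abundance. The earliest Ct was between 12.2 and 14.9 in the 6 daughters. Levels are given below as the card's median Ct over the kept wells minus the well's Ct, a log2 relative level that needs no reference assay. On this scale the highest level in a daughter lay between 12.19 and 13.97 and the lowest between -8.06 and -6.75. The most abundant assays were largely shared by all daughters. On card 1, 14 of the top 20 wells were the same in all 6 daughters, and on card 2 it was 8 of the top 10.

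Daughters 49.2 and 60.5 stood apart from the other 4, and their values bear on every comparison by diet. Over the 289 wells, Spearman's rank correlation was 0.946 to 0.960 between lard daughters and 0.960 to 0.968 between corn oil daughter 41.6 and each lard daughter. Between 49.2 and 60.5 it was 0.962. It was only 0.914 between 41.6 and 49.2, 0.896 between 41.6 and 60.5, and 0.890 to 0.908 between 49.2 or 60.5 and a lard daughter. Corn oil daughter 41.6 was thus closer in rank order to the 3 lard daughters than to either daughter of its own group. That held on each card, but the split of the daughters was less clean on card 2. There 25.5 and 49.2 were at 0.931, above 31.2 and 41.6 at 0.927, and 49.2 and 60.5 were at 0.916. These correlations are across wells, which are not independent replicates, and the wells of a daughter share 1 RNA sample and 1 pair of cards.

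**Figure D1:**
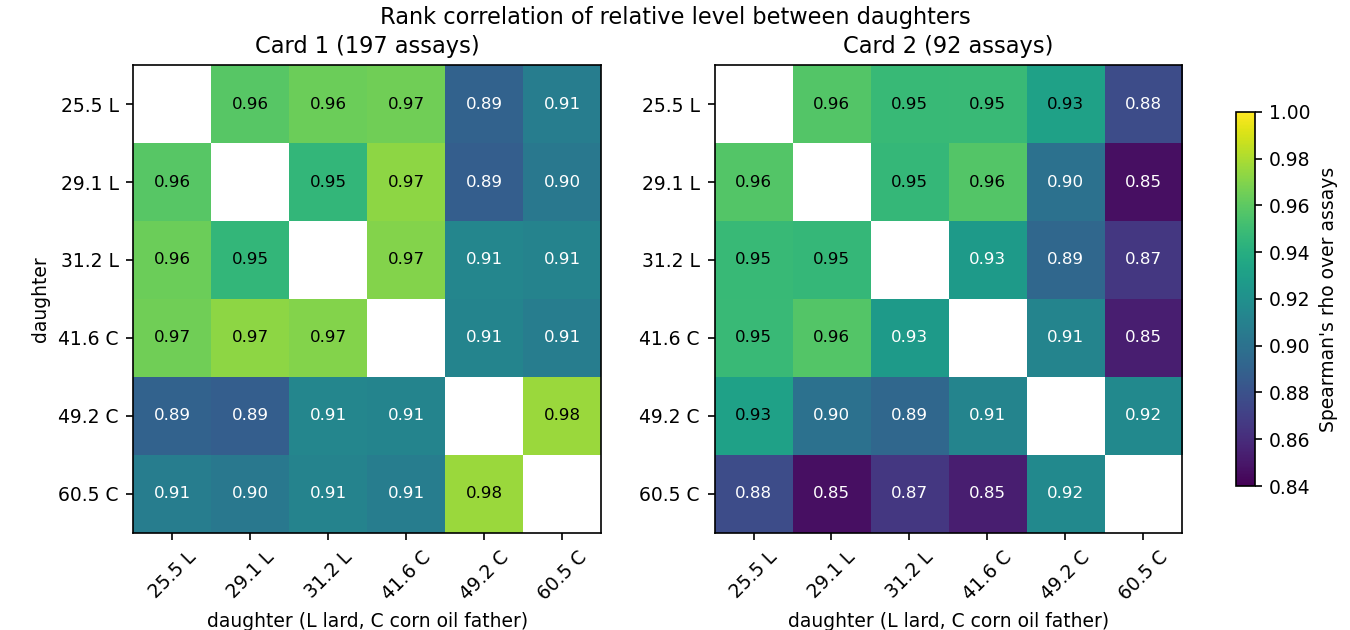
Spearman rank correlation of relative level between each pair of the 6 daughters, over the 197 kept wells of card 1 and the 92 of card 2. On card 1 the lard daughters and corn oil daughter 41.6 form a block at 0.946 to 0.973. There 49.2 and 60.5 pair at 0.976, and pairs across lie at 0.888 to 0.914. On card 2 the ranges overlap, at 0.927 to 0.957 within the block and 0.846 to 0.931 across, with 49.2 and 60.5 at 0.916.

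Measured against the lard daughters, 41.6 also lay closer than 49.2 and 60.5 in single wells. The relative level of 41.6 lay within the range of the 3 lard daughters in 168 of 289 wells (58.1%), compared with 98 wells (33.9%) for 49.2 and 109 wells (37.7%) for 60.5. Differences of more than 2 on the log2 scale from the lard mean were found in 5 wells in 41.6, in 39 wells in 49.2 and in 31 wells in 60.5. Another measure set 60.5 less apart. Daughter 60.5 lay outside the range of the other 5 daughters in 107 wells. The count was 108 for 29.1, 105 for 31.2, 122 for 49.2, 76 for 25.5 and 60 for 41.6. The median absolute difference in level between lard daughters was 0.40 (25.5 and 29.1), 0.60 (25.5 and 31.2) and 0.75 (29.1 and 31.2). Between 60.5 and a lard daughter it was 0.73 for 25.5, 0.73 for 29.1 and 0.81 for 31.2. For 49.2 it was 0.78 to 0.96, and for 41.6 it was 0.51 to 0.57.

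The Ct values of 49.2 and 60.5 also fell at unusual places within the PCR cycle. A Ct within 0.1 of a whole cycle would be found in 20% of wells if values were spread evenly. The share was 27.7% in 25.5, 20.4% in 29.1, 30.8% in 31.2 and 28.7% in 41.6, and it was 26% to 34.5% in the 6 sperm samples. It was 52.2% (151 of 289 wells) in 49.2 and 62.6% (181 wells) in 60.5. Both values lie above all 10 other samples. Most of the excess was in the final 0.1 cycle before a whole number, which held 42.2% of wells in 49.2 and 54.3% in 60.5, compared with 14.2% to 21.5% in the other 4 daughters.

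In these 2 daughters the wells near a whole cycle were complementary. At least 1 of 49.2 and 60.5 was near a whole cycle in 284 of 289 wells (98.3%). In 48 of these wells both were near, in 103 only 49.2 was and in 133 only 60.5 was, which left 5 wells where neither was. For the other 14 pairs of daughters, at least 1 was near a whole cycle in 44.6% to 73.7% of wells. Such a share also rises with each daughter's own share of wells near a whole cycle. The correlation across wells of being near or not was -0.667 for 49.2 and 60.5. It was -0.143 to 0.066 for the other 14 pairs. Among wells that crossed the threshold in 49.2 and not in 60.5, 41 of 46 (89.1%) were near a whole cycle, and among those that crossed in 60.5 and not in 49.2, 35 of 38 (92.1%) were. How the threshold and baseline of each well were set is not given in the sources used here, and the part of this pattern in the differences by diet was not tested. Because both daughters belong to the corn oil group, the pattern and the diet cannot be told apart except through 41.6.

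**Figure D2:**
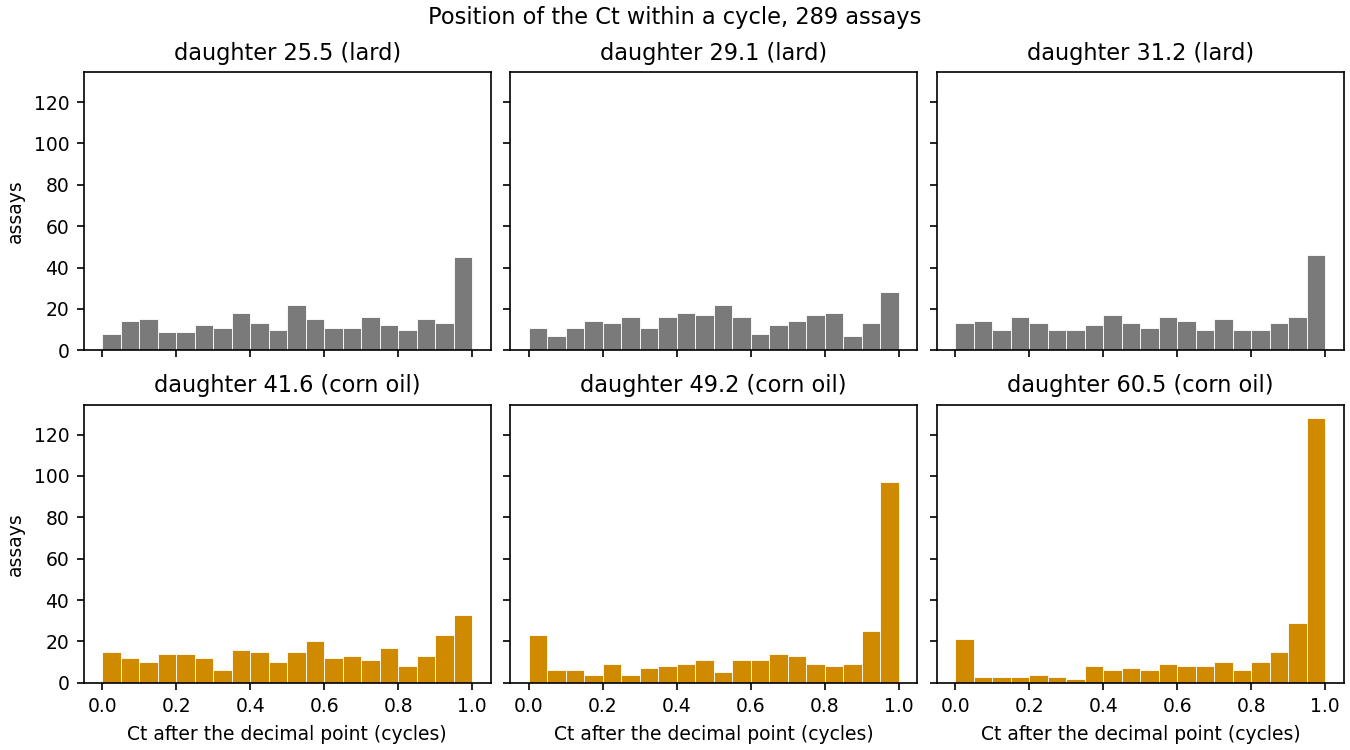
Distribution of the fractional part of Ct (in cycles) over the 289 kept wells, for each of the 6 daughters. Values of 49.2 and 60.5 pile up just below a whole cycle, with 42.2% and 54.3% of wells in the final 0.1 cycle, compared with 14.2% to 21.5% in the other daughters.

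Before any centring, the median Ct was on average later in corn oil daughters on card 2, with overlap between the groups. The median Ct of the kept wells on card 1 was 26.1, 27.5 and 24.9 in lard daughters 25.5, 29.1 and 31.2, and 26.4, 26.0 and 27.7 in corn oil daughters 41.6, 49.2 and 60.5. The groups overlapped, with means of 26.2 ± 1.28 (SD, n = 3) for lard and 26.7 ± 0.895 (SD, n = 3) for corn oil (two-sided exact permutation test, p = 0.6). On card 2 the median was 28.0, 28.1 and 26.0 in the lard daughters and 27.9, 29.9 and 29.8 in the corn oil daughters. Daughters 49.2 and 60.5 were the latest, while 41.6 lay between the lard values. The means were 27.4 ± 1.18 (SD, n = 3) and 29.2 ± 1.15 (SD, n = 3), a difference of 1.84 cycles (exact permutation test, p = 0.3). It was 1.16 cycles without 31.2 and 2.50 without 41.6. Over the wells with Ct under 40 in all 6 daughters it was 2.16 cycles, with the groups fully separated (exact permutation test, p = 0.1). With 3 samples against 3, no exact p can go below 0.1. The gap between the cards was 1.89, 0.638 and 1.09 cycles in the lard daughters and 1.49, 3.94 and 2.13 cycles in the corn oil daughters, which is why each card was centred on its own median.

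Fewer wells were detected in corn oil than in lard daughters on average, although the groups overlapped. The number of wells under 35 was 414, 373 and 450 in lard daughters 25.5, 29.1 and 31.2, and 392, 364 and 336 in corn oil daughters 41.6, 49.2 and 60.5. The mean fell by 48.3 wells in corn oil daughters, from 412 ± 38.5 (SD, n = 3) in lard to 364 ± 28 (SD, n = 3), and did not pass the test (two-sided exact permutation test, p = 0.2). The difference was -29.5 wells without 31.2 and -68 without 29.1. Card 2 carried most of it, with 156, 142 and 186 wells in lard and 152, 112 and 109 in corn oil daughters (exact permutation test, p = 0.2). Here too 41.6 lay among the lard daughters, and 49.2 and 60.5 were below them.

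With levels centred on the card median, no assay passed the test for a difference by paternal diet after adjustment for all wells. In limma's moderated test over the 289 wells with Benjamini-Hochberg adjustment, 0 wells (0%) were lower and 0 (0%) higher in corn oil daughters at an adjusted p under 0.1, and the smallest adjusted p was 0.326. The methods' t-test, which the study names for comparisons of a pair of groups in general, was run on the same card-median levels rather than on levels set against control assays, and also gave 0 after adjustment. The adjusted count depended on the scaling and weighting, with 188 lower and 1 higher against the 4-well control, 8 lower and 0 higher on raw Ct, and 34 lower and 34 higher with limma array weights. At an unadjusted p at or below 0.05, 20 wells (6.92% of those tested) were lower and 22 wells (7.61%) higher in corn oil daughters. Values of the groups did not overlap in 14 wells (4.84%) on the low side and in 32 wells (11.1%) on the high side. Of the 42 wells at the unadjusted threshold, 32 were without overlap, 12 lower and 20 higher.

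The differences were centred close to 0 and few were large. The corn oil minus lard difference in log2 relative level had a median of 0.21, with quartiles of -0.36 and 0.68, and the median standard error of a difference was 0.48. Of the 289 wells, 122 were below 0 and 167 above. Differences of more than 2 in size were found in 16 wells, 11 lower and 5 higher, and 8 of these 16 were without overlap. The balance of lower and higher wells was set by the centring. At the unadjusted threshold, raw Ct gave 33 lower and 0 higher, and the single-well controls of each card gave 35 and 2. The 4-well control gave 173 and 0, all 3 controls together gave 75 and 1, and a single median over both cards gave 29 and 13. The within-sample rank gave 9 and 15. The median difference over all wells, 0.21 with the card median, was -0.74 with raw Ct, -0.73 with the single-well controls, -1.53 with the 4-well control and -0.95 with all 3 controls, so directions given here are relative to the median well of each card.

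**Figure D3:**
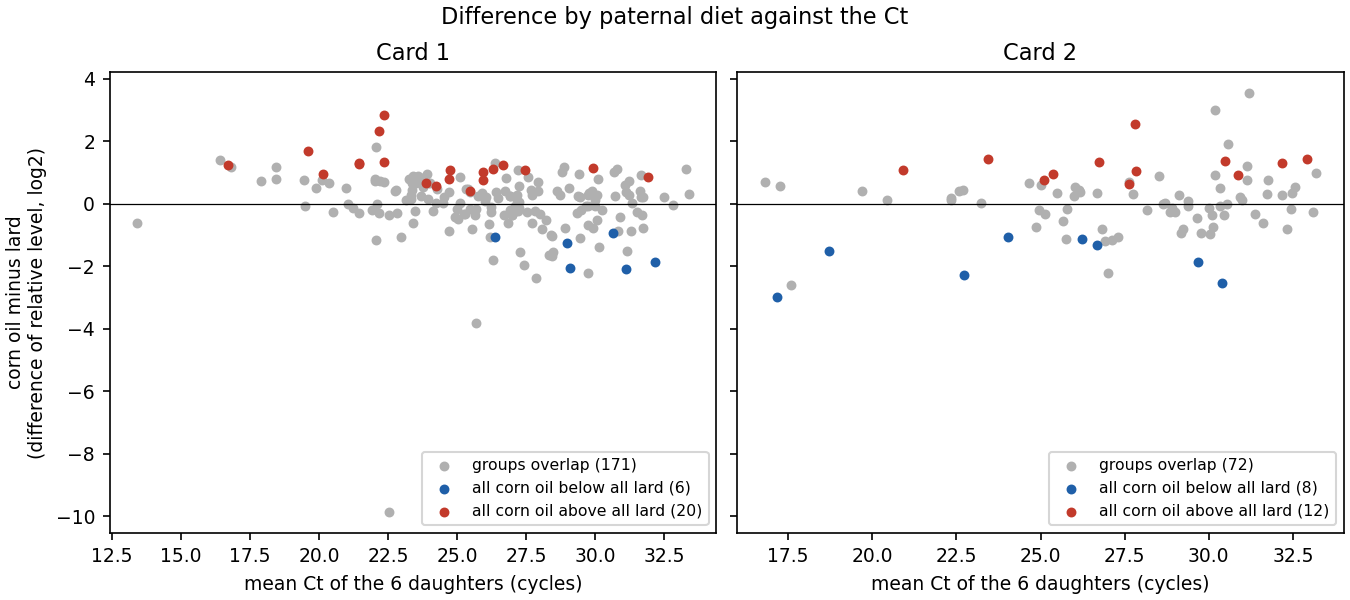
Corn oil minus lard difference in log2 relative level (vertical axis) against mean Ct in cycles (horizontal axis) for each of the 289 kept wells, by card. Differences ran from -9.86 to 3.54 with a median of 0.21, and 46 wells, 14 lower and 32 higher, had no overlap between the groups.

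Within-group spread was of the same order in both groups. The median SD of a well was 0.50 in lard and 0.55 in corn oil daughters on the log2 scale, and it was larger in corn oil in 164 of 289 wells (56.7%). An SD over 2 was found in 5 wells in lard and in 9 wells in corn oil daughters.

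On card 1 the median difference was highest among the wells of earliest Ct. With wells of a card cut into 4 bins by mean Ct, the earliest bin of card 1 held 50 wells between 13.4 and 23.6, and there the median difference was 0.66, with 8 wells higher and 0 lower without overlap, where 11.1% of all 289 wells were higher and 4.84% lower without overlap. The later bins of card 1, of 49 wells each, held 8 higher and 1 lower, 2 and 2, and 2 and 3. The bins of card 2, of 23 wells each, held 4 and 4, 4 and 2, 0 and 2, and 4 and 0. In the later bins of card 1 the medians were 0.23, -0.14 and 0.11. Card 2 showed medians of 0.18, 0.25, -0.14 and 0.35 from the earliest to the latest bin. These medians are descriptions, since wells of a card are not independent.

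The wells with the greatest differences at the unadjusted threshold without overlap were 470 and 403, lower in corn oil daughters, and 101 and 548, higher in corn oil daughters. Well 470, on card 2, was among the most abundant assays of the card. Its relative level was 13.50, 11.68 and 12.61 in lard daughters 25.5, 29.1 and 31.2, and 11.61, 8.84 and 8.41 in corn oil daughters 41.6, 49.2 and 60.5. It ranked first of 92 wells in every lard daughter and 3, 6 and 4 in the corn oil daughters. The value in 41.6 was just below the lowest lard value, and 49.2 and 60.5 were far below. The difference was -2.98 (SE 0.87, limma adjusted p = 0.326), and it was -0.99 with 41.6 as the only corn oil daughter.

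Well 403, on card 2, lay below the card median in every daughter. Its rank among 92 wells was 54, 52 and 62 in the lard daughters and 68, 85 and 88 in the corn oil daughters. Its relative level was -0.56, -0.54 and -1.43 in lard daughters 25.5, 29.1 and 31.2 and -2.04, -3.96 and -4.15 in corn oil daughters 41.6, 49.2 and 60.5. The 2 lowest values were again those of 49.2 and 60.5, whose Ct of 33.88 and 33.97 lay close to the limit of 35. The difference was -2.54 (SE 0.62, limma adjusted p = 0.326) and -1.20 with 41.6 alone.

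Well 101, on card 1, had a relative level of 2.88, 1.35 and 3.70 in lard daughters 25.5, 29.1 and 31.2 and of 4.37, 6.97 and 5.09 in corn oil daughters 41.6, 49.2 and 60.5. Its rank among 197 wells was 46, 75 and 36 in the lard daughters and 29, 13 and 24 in the corn oil daughters. All corn oil values were above all lard values, with 49.2 standing highest. The difference was 2.84 (SE 0.81, limma adjusted p = 0.326), and 1.73 with 41.6 alone.

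Well 548, on card 2, had a relative level of -0.08, 0.22 and -2.49 in lard daughters 25.5, 29.1 and 31.2 and of 1.02, 2.43 and 1.84 in corn oil daughters 41.6, 49.2 and 60.5. The low value of 31.2 widened the difference, and its Ct values differed less, at 28.1, 27.9 and 28.5 compared with 26.9, 27.5 and 28.0. The difference was 2.55 (SE 0.75, limma adjusted p = 0.326). It was 1.70 without 31.2, 1.81 with 41.6 alone, 0.72 on raw Ct and 0.33 against the 4-well control.

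**Figure D4:**
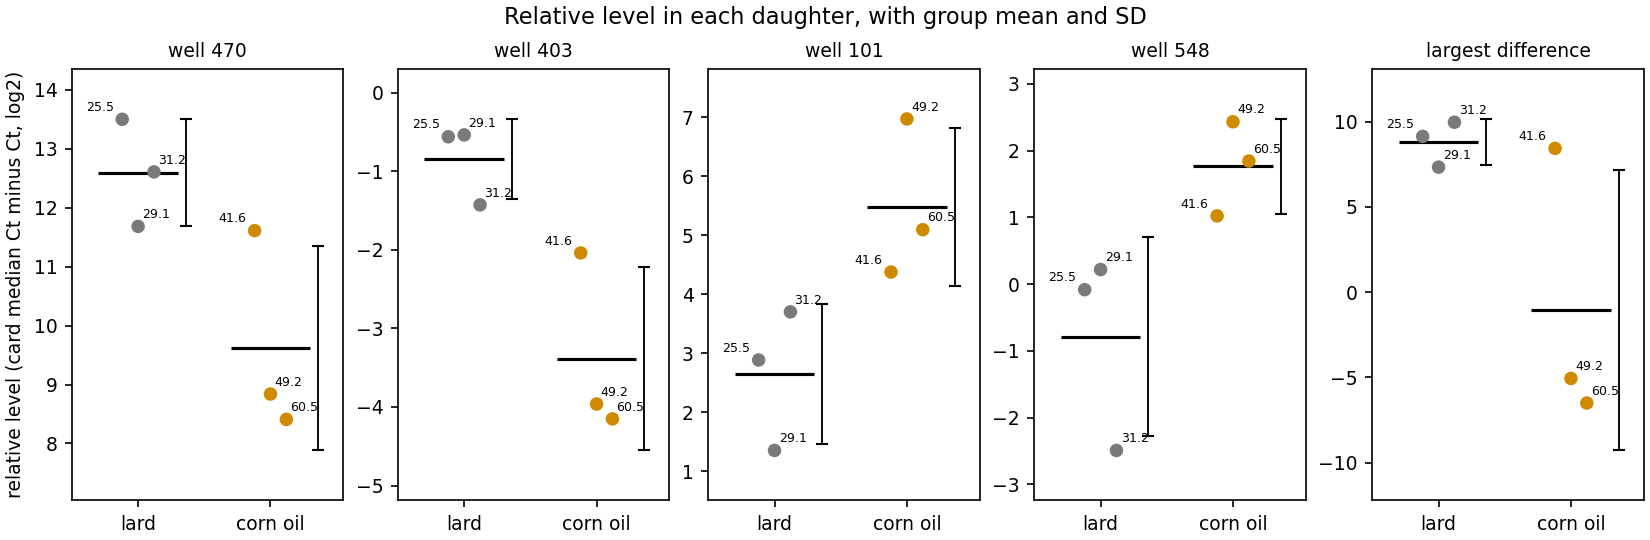
Log2 relative level (card median Ct minus Ct) in each daughter for wells 470, 403, 101 and 548 and, in the last panel, for the well with the greatest difference of all, with group mean (line) and SD (bar, n = 3). Wells 470 and 403 were lower and wells 101 and 548 higher in all 3 corn oil daughters, with 41.6 the corn oil value nearest to the lard daughters in each, and in the last panel 41.6 lay among the lard daughters.

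The difference of greatest size in the whole set came from daughters 49.2 and 60.5 alone. In this well of card 1 the Ct was 17.0, 20.1 and 15.0 in lard daughters 25.5, 29.1 and 31.2, and 18.0, 31.0 and 34.2 in corn oil daughters 41.6, 49.2 and 60.5. It ranked 4, 8, 2 and 6 of 197 in the lard daughters and 41.6, and 186 and 196 in 49.2 and 60.5, and the groups overlapped. The difference was -9.86 (SE 3.41, limma adjusted p = 0.326). The greatest difference in the other direction, 3.54 (SE 1.78, limma adjusted p = 0.417) in a well of card 2, was of the same kind. The relative level of 41.6, -5.69, lay among the lard values of -3.57, -5.88 and -4.60, while 49.2 and 60.5 were higher at -0.09 and 2.35.

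The number of wells called depended on which corn oil daughters were included. Without 41.6, limma called 49 wells at an adjusted p under 0.1, 30 lower and 19 higher, and 78 wells at the unadjusted threshold. In 19 of these 49 wells, 41.6 lay within the range of the lard daughters, compared with 168 of all 289 wells (58.1%). In 23 of the 49 it lay beyond that range on the side of the difference. Wells 470, 403, 101 and 548 were among the 49. Without 49.2 and 60.5, limma called 0 wells after adjustment and 7 at the unadjusted threshold, 4 lower and 3 higher. There the lone corn oil daughter was assumed to vary like the lard daughters, and a fit with fewer samples makes fewer calls at a given difference and spread. Leaving out 1 lard daughter gave 17, 23 and 44 wells at the unadjusted threshold, without 25.5, 29.1 and 31.2, and leaving out 49.2 or 60.5 gave 13 and 26, compared with 42 for all 6.

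**Figure D5:**
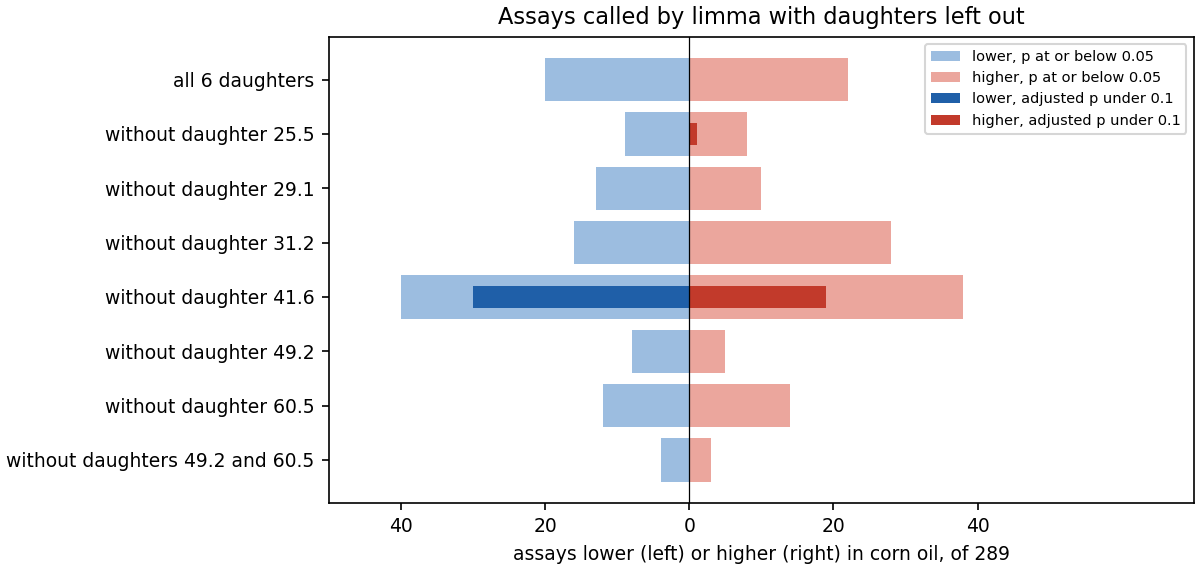
Number of wells lower and higher in corn oil daughters at an unadjusted limma p at or below 0.05 (pale bars) and an adjusted p under 0.1 (dark bars), with all 6 daughters and with daughters left out. At the unadjusted threshold, counts rose to 78 without 41.6 and were 7 in the smaller fit without 49.2 and 60.5, compared with 42 in all 6.

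Among the wells left out, 262 were under 35 in no daughter and 205 in 1 to 5 daughters. Of these 205, 138 were under 35 in more lard than corn oil daughters, 32 in more corn oil than lard daughters and 35 in equal numbers. Daughter 60.5 alone missed 23 of the 47 wells that were under 35 in 5 daughters, compared with 9 each for 29.1 and 41.6, 4 for 49.2, 2 for 31.2 and 0 for 25.5. Of the 30 wells under 35 in 4 daughters, 14 were missed in 49.2 and 60.5.

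A small set of wells separated the groups by detection alone. Under 35 in all lard daughters and in no corn oil daughter were 5 wells, all on card 2, and 0 wells showed the reverse. Their lard Ct values lay between 28.8 and 33.96. In 41.6, 4 of the 5 never crossed the threshold and the other crossed at 38.9. Daughter 49.2 had no crossing in 4 and 60.5 in 2. Where they did cross, the Ct lay close to the limit of 35, at 35.12 in 49.2 and at 36.02, 35.96 and 35.90 in 60.5. These wells were picked by this pattern, so that it carries no test.

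The same assays were also measured in sperm of males on the same diets. These were the males numbered 9, 10 and 11 (fed lard) and 18, 19 and 20 (fed corn oil). In them 262 of the 289 wells were also under 35 in all 6. In these 262 wells the median size of the corn oil minus lard difference was 0.42 in sperm and 0.55 in the mammary gland. Groups did not overlap in sperm in 14 wells lower (5.34%) and 10 higher (3.82%), and in the gland in 14 lower (5.34%) and 28 higher (10.7%). Well 470 was at 13.65, 13.67 and 13.27 in lard and 13.49, 14.32 and 12.97 in corn oil sperm, which overlapped, with a difference of 0.07. Differences in sperm were -1.25 for well 101 and -1.12 for well 548, also with overlap, and well 403 was not under 35 in all sperm samples. In limma's test of the diet by tissue interaction, that is whether the corn oil minus lard difference itself differed between gland and sperm, 0 of 262 wells (0%) had an adjusted p under 0.1 (smallest 0.270) and 23 (8.78%) an unadjusted p at or below 0.05. Adjusted p was 0.460 for wells 470, 101 and 548. Without 41.6, 14 wells had an adjusted p under 0.1 in that test.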

How the data were processed

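Threshold cycles were deposited by the authors, per well and sample, as cycles (Ct) without normalization, from TaqMan rodent miRNA cards run on cDNA made with pooled primers and then preamplified. Wells that never crossed hold 40. A second deposited file holds the authors' own comparisons of corn oil with lard and was not used. The labels name Trizol for the extraction and the methods a column kit. Groups follow the sample titles. Members and lists were chosen with earlier results of these data known.

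Wells with Ct under 35 in all 6 daughters were kept, control wells were dropped, and each card was centred on the median Ct of its kept wells. limma 3.58.1 in R 4.3.3 (lmFit, eBayes) compared the groups over both cards together. Single values were compared by exact permutation tests over samples. Named wells were the 2 with the greatest difference in each direction among those with p at or below 0.05 and no overlap; the wells of greatest difference in all, and the wells detected only in lard, were added after their values were seen. A Ct is 1 reaction per well and gives no count, so no counting interval applies. The fit was tested on simulated data first.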

Additional observations from a re-analysis of the deposited data

How the results depend on the processing

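No paired analysis was possible because no animal number occurs in both diets. The number of wells at an adjusted p under 0.1, 0 with the card median, was 189 with the 4-well control (188 lower), 8 with raw Ct, 1 with wells under 35 in at least 3 of 6 daughters, and 68 with limma array weights, which gave 41.6 the lowest weight (0.40). Leaving out 1 daughter gave 0 to 49, with 49 without 41.6, 1 without 25.5 and 0 otherwise. At the unadjusted threshold the number, 42 with the card median, was 173 with the 4-well control, 76 with all 3 controls, 24 with within-sample ranks, 87 with array weights, 19 with the methods' t-test, and 13 to 78 leaving out 1 daughter. Leaving out 49.2 and 60.5, chosen after seeing the data, gave 7, or 8 when wells were kept by the other 4 daughters. Other cutoffs (Ct under 30, 32 or 40), card means, quantile normalization, a fit over all 12 samples and fits per card gave counts within 1.5 times of 42 and 0 adjusted calls.

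The difference in median Ct on card 1, 0.523 cycles, ran from -0.0974 (without 31.2) to 1.18 leaving out 1 daughter. The diet by tissue interaction, 0 wells, gave 2 on raw Ct and 0 to 14 leaving out 1 animal, with 14 without 41.6, 1 without male 10 and 0 otherwise. Wells 470, 101 and 548 kept their direction under every alternative run, and well 403 under those that kept it (it was dropped at Ct under 32 and under 30). Their unadjusted calls were less stable, and all were lost without 49.2 and 60.5. The call of 470 was also lost by rank and the t-test, that of 403 in the 12-sample fit, and that of 101 with the 4-well control, raw Ct and the t-test. The call of 548 was also lost with the 4-well control, all 3 controls, raw Ct, 1 median over both cards, rank and the t-test. The causes were not tested.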

Other observations

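A well of card 1 that was not kept crossed very early, at a Ct of 6.40, 6.44 and 6.03 in lard daughters 25.5, 29.1 and 31.2 and at 6.25 and 7.01 in corn oil daughters 41.6 and 49.2. In 60.5 it is listed at 40, without a crossing. In the 6 sperm samples it crossed between 5.54 and 6.27.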
